A study of Homo sapiens with 9 samples.

Results

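The comparison described here is between KO2, one of 2 monoclonal BCKDK knockout lines, and Vector, the control cells, in H1299, an established line of lung adenocarcinoma cells. It covers the 16683 genes, of 58735 in the deposited table, whose mean was at least 0.5 FPKM over the 3 KO2 and the 3 Vector libraries. FPKM is a read count scaled to a gene's exon length and to the depth of the library. Vector cells are labelled wild type and had been transduced with the lentiCRISPR v2 plasmid, while KO1 and KO2 carry CRISPR editing of BCKDK and were each grown out by limiting dilution. KO1, with 3 libraries, entered the same fit and served as the second reference for what was found in KO2. No drug treatment or time point is labelled for any group. KO2 is 1 clone, and Vector is not described as a clone, so editing of BCKDK and the choice of 1 cell cannot be told apart here. Whether the libraries of one group stem from different cultures is not labelled, and the p-values then measure only how far these libraries spread, which can be technical.

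BCKDK encodes the kinase that phosphorylates the branched-chain ketoacid dehydrogenase complex in mitochondria and so holds back the breakdown of leucine, isoleucine and valine. A line grown from a single cell carries whatever expression state and chromosome content that cell had, so transcripts can differ between clones of an aneuploid cancer line apart from the edited gene. The series title names BCKDK together with MYC, HK2 and resistance to a MEK inhibitor, and some of the genes below are known targets or brakes of the growth factor pathway in which MEK acts.

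Recovered reads numbered 16002212 to 17090445 per library. Replicate 3 of Vector and of KO2 stood apart from the rest of its group, with chi-square per degree of freedom of 39.1 to 46.4 and 39.6 to 42.9 against the other 2 libraries, which differed from each other by 6.21 and 2.47. Against those, Vector replicate 3 was lower by a median of 0.40 on the log2(FPKM + 1) scale for genes under 40% GC and higher by 0.60 for genes of 60% GC or more, and KO2 replicate 3 leaned the other way, from 0.10 to -0.18. The counts of genes, bins and lists below are therefore given with all libraries, and those that lead each comparison again without both of these. BCKDK itself stood at 13.7, 12.9 and 17.5 FPKM in Vector and at 0.628, 0.576 and 0.287 FPKM in KO2. The defining markers of other cell types were near 0: CDH1, EPCAM and PTPRC were under 0.5 FPKM in all libraries, as were 14 of 15 blood markers, 11 of 15 alveolar and airway markers and 10 of 14 epithelial markers in Vector and KO2. VIM, a mesenchymal intermediate filament, ranged from 454 to 817 FPKM over those 6 libraries, and KRT18 from 53.2 to 103 FPKM. KRT7 and KRT19, which like KRT18 are keratins of simple epithelium, were at most 0.167 and 0.0717 FPKM in Vector and KO2. KRT8, a further keratin of simple epithelium, ranged from 13.5 to 20.4 FPKM in Vector and KO2. The epithelial markers MUC1 and CLDN4 were low, at 1.02 to 1.30 and 0.633 to 1.24 FPKM. A label of adenocarcinoma therefore comes here with KRT8 and KRT18, but with KRT7, KRT19, CDH1 and EPCAM near 0.

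Against Vector, 2174 genes rose in KO2 (13% of those fitted) and 2555 fell (15.3%), at an adjusted p under 0.05 in limma with Benjamini-Hochberg adjustment. Without Vector replicate 3 and KO2 replicate 3, 2028 of the risen genes (12.2% of all fitted) and 2396 of the fallen genes (14.4%) were called again in the same direction, and 0 were called in the opposite one. That fit called more genes in all, 4031 up and 4269 down. Changes of at least 1 on the log2 scale numbered 445 up and 497 down, of which 431 and 483 were called again. All 3 KO2 libraries lay above all 3 Vector libraries for 2106 of the risen genes, and below for 2518 of the fallen. A call favours genes whose libraries are so separated, so these counts are no separate support for the calls. The share over all fitted genes was not counted. Risen genes had a median exon GC content of 52.2% and fallen genes 45.3%, against 47.5% over all fitted genes. The part of GC content in these calls was not tested, and with a trend on GC content and length removed from each library 3374 genes rose and 3407 fell.

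**Figure D1:**
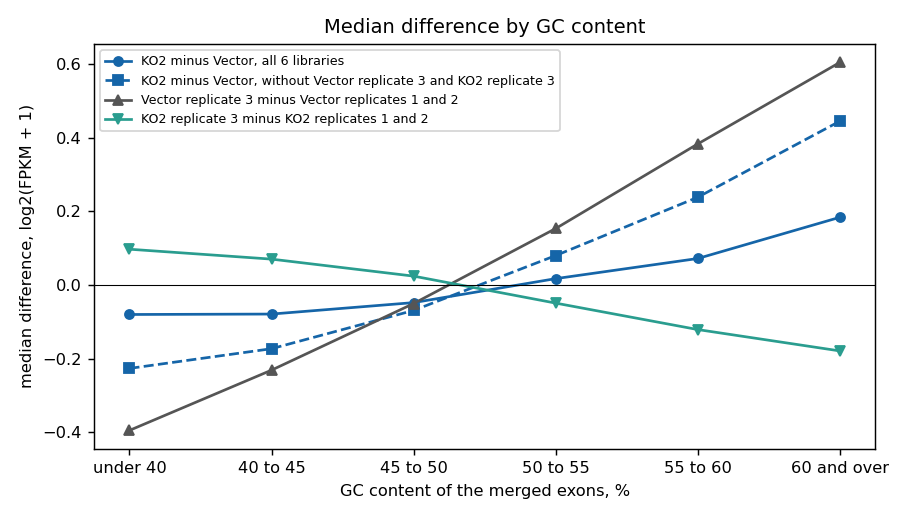
Median difference on the log2(FPKM + 1) scale (y axis) for genes in 6 classes of exon GC content in percent (x axis), 1 point per class and 1 line per comparison. Vector replicate 3 runs from -0.40 to 0.60 against the other Vector libraries, and KO2 minus Vector runs from -0.08 to 0.18 with all libraries and from -0.23 to 0.45 without Vector replicate 3 and KO2 replicate 3.

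The largest rise of a protein-coding gene was that of NOG (chromosome 17, 56593699 to 56595590 of hg38), which encodes noggin, a secreted antagonist of bone morphogenetic proteins. NOG measured 0.578, 0.624 and 1.02 FPKM in Vector, 12, 11.1 and 10.6 in KO1 and 55.5, 51.3 and 37.4 in KO2. The 3 groups did not overlap, and KO2 was the highest. The mean was 64.8-fold higher in KO2 than in Vector (log2 4.81, 95% interval 4.45 to 5.16, limma adjusted p = 4.74e-07), and KO2 exceeded KO1 by 1.99 (adjusted p = 3.88e-05).

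FN1, which encodes fibronectin (chromosome 2, 215360440 to 215436172), stood at 4.93, 6.25 and 6.2 FPKM in Vector, at 28, 30.1 and 28.5 in KO1 and at 52, 51 and 68.5 in KO2. Its mean was 9.86-fold higher than in Vector (log2 3.09, SE 0.14, limma adjusted p = 1.1e-06). EFEMP1, the matrix glycoprotein fibulin-3, went from 0.413 ± 0.121 to 8.06 ± 0.551 FPKM (SD, n = 3; log2 2.68) with 1.37 ± 0.104 in KO1. MGP, an inhibitor of calcification, measured 8.39, 8.77 and 3.72 FPKM in KO2 and at most 0.207 in Vector (log2 2.72), with the lowest KO2 value in replicate 3. CLU, a secreted chaperone, stood at 15.3, 15.3 and 14.2 FPKM in KO2 against 1.88, 1.63 and 2.32 in Vector. MMP2, a gelatinase, rose by 2.42 and ADAMTSL3, a matrix protein related to ADAMTS proteases, by 1.98. MMP1, the interstitial collagenase, fell by 2.59, from 10.2, 11.1 and 8.81 FPKM in Vector to 0.776, 0.935 and 0.784. LAMA2, a laminin chain of basement membranes, fell from 6.26, 7.3 and 6.74 FPKM to 0.0765, 0.0646 and 0.0656, and PXDN, a peroxidase that crosslinks collagen IV, was listed at 0 in all libraries of both clones. The genes of this paragraph therefore include both rises and falls. The groups of KO2 and Vector did not overlap for any of them, which the rules that picked them required.

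ADRA1B, the alpha-1B adrenergic receptor (chromosome 5, 159865080 to 159972544), stood at 4.12, 3.08 and 5.25 FPKM in Vector, 16.5, 16.3 and 15.8 in KO1 and 39.5, 34.1 and 40.2 in KO2 (log2 2.94 against Vector, limma adjusted p = 2.4e-06). TNFRSF21, also called death receptor 6, measured 5.56, 5.11 and 6.16 FPKM in Vector and 39.9, 39.1 and 39 in KO2, with KO1 between them at 14.3, 14.7 and 13.8. NRP1, a coreceptor for semaphorins and VEGF, rose from 0.459, 0.461 and 0.469 FPKM to 7.07, 7.46 and 9.66, but was higher still in KO1 at 19.7, 19.4 and 18.6. For NRP1 the difference of KO2 from KO1 was -1.17 (adjusted p = 0.000124).

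TNS3, a focal adhesion protein, stood at 3.78, 3.86 and 5.31 FPKM in Vector and at 29.8, 28.8 and 29.4 in KO2. PLK2, a polo-like kinase, measured 10.2, 10.4 and 9.03 FPKM in Vector and 67.7, 70.3 and 42 in KO2. GJB2, which encodes the gap junction protein connexin 26, TGFA, a ligand of the epidermal growth factor receptor, and SPRY1, a feedback inhibitor of receptor tyrosine kinase signalling, rose by 3.84, 2.87 and 2.37. LPCAT2, an acyltransferase of phospholipid remodelling, rose by 2.60 and FRMD5, a FERM domain protein, by 2.20. FIBCD1, a receptor that binds chitin, rose by 2.45, CALB2, the calcium-binding protein calretinin, by 2.22 and NPAS2, a transcription factor of the circadian clock, by 2.35. Of the genes of this paragraph, GJB2 and SPRY1 did not pass the threshold between KO1 and Vector (-0.24 and 0.30). The others were higher in KO1 than in Vector, by 2.25 for TGFA, 2.86 for LPCAT2, 1.27 for FRMD5, 1.69 for FIBCD1, 2.74 for CALB2, 2.47 for NPAS2, 0.77 for PLK2 and 0.44 for TNS3. CALB2 was lower in KO2 than in KO1, and LPCAT2 and NPAS2 did not pass the test between the clones.

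Among the large falls was a set of transcripts that both clones lacked or nearly lacked. IL13RA2, a decoy receptor for interleukin 13, went from 46, 41 and 27.2 FPKM in Vector to 0.104, 0 and 0 in KO2 and 0.231, 0.303 and 0.146 in KO1. RBP7, a retinoid-binding protein, fell from 22.4, 19.9 and 21 FPKM to 0.723, 0.972 and 0.717. GALC, the lysosomal enzyme that degrades galactosylceramide, had 3274 reads over the Vector libraries and 0 over KO2 and over KO1. Against a floor of 3 reads over the group, GALC was at least 1110-fold lower in KO2, PXDN at least 1311-fold and NXF2, an RNA export factor of the testis, at least 260-fold. NXF2 has a near-identical copy on chromosome X, so its reads are uncertain.

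SUN3, COX7B2 and ULBP1, which are a nuclear envelope protein and a cytochrome oxidase subunit of the testis and a ligand of the NKG2D receptor, were at most 0.383 FPKM in every KO2 library. They stood at 7.85 to 11.6, 8.95 to 11.1 and 4.49 to 6.07 FPKM in Vector. PCSK1N, an inhibitor of prohormone convertase, fell by 3.21, SALL3, a zinc finger transcription factor, by 3.14, TMEM156 by 3.02 and ACOT1, an acyl-CoA thioesterase with close copies beside it, by 2.74. PLEK2, a pleckstrin, fell by 2.62 and NRN1, neuritin, by 2.55. Of these 9 genes, TMEM156 and NRN1 were also lower in KO2 than in KO1, by 1.40 and 1.22, and the other 7 did not pass the test between the clones.

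Transcripts that were switched on or off were counted at fixed levels. A set of 20 genes (0.12% of those fitted) was under 0.5 FPKM in all Vector libraries and at least 2 in all KO2 libraries, and 60 genes (0.36%) showed the reverse. All 20 and all 60 were called again without Vector replicate 3 and KO2 replicate 3. The levels they were picked by hold in the 4 remaining libraries too, so this was largely set in advance. Over those libraries alone 35 and 77 genes met these levels. Of the 20, 17 were also higher in KO2 than in KO1. Of the 60, 45 did not differ from KO1 at the threshold, 11 were lower than in KO1 and 4 were higher. Over all fitted genes, 15% were higher and 15.5% lower in KO2 than in KO1. The KO2 levels that picked the 20 and the 60 also enter the test against KO1, so these counts are descriptions. In 15 of the 60 all KO2 libraries were at 0, and in 8 of those all KO1 libraries were too. ONECUT3, a homeobox transcription factor, went from at most 0.0342 FPKM in Vector to 3.93, 3.62 and 3.53 in KO2, with KO1 at most 0.0296. NWD1, an NACHT and WD repeat protein, went from at most 0.300 to 3.85, 3.77 and 4.5 FPKM. KO1 did not differ from Vector at the threshold in 2 of the 60, SFTA1P and AC036214.1, both long non-coding RNAs, and the latter was singled out after its values were seen. AC036214.1 measured 2.5, 3.39 and 2.99 FPKM in Vector, 1.81, 3.06 and 2.8 in KO1 and 0.369, 0.341 and 0.403 in KO2. SFTA1P measured 15.8, 14.8 and 9.74 FPKM in Vector, 10.3, 10.9 and 9.69 in KO1 and 0 in all KO2 libraries. Its reads summed to 562, 417 and 0, so KO2 was at least 191-fold lower than Vector against a floor of 3 reads over the group. AC003092.1, another long non-coding RNA, went from 17.5, 18.4 and 12.9 FPKM to 0.213, 0 and 0, with KO1 at most 0.111. Floors cover counting error only, whereas the 95% intervals of log2 differences come from the fit and rest on the spread between libraries.

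Among other non-coding genes, DUBR, a long non-coding RNA of chromosome 3, stood at 1.89, 1.78 and 1.42 FPKM in Vector, 1.36, 1.67 and 1.42 in KO1 and 11.2, 10.9 and 10.3 in KO2. The mitochondrial tRNA genes MT-TH, MT-TV and MT-TL2 rose by 2.23, 1.80 and 1.69, but they are short and MT-TV reached 175 FPKM in KO2 replicate 3 against 59.1 and 55 in the other libraries. ELOBP2, a pseudogene, fell by 4.24 and its reads can come from the parent gene.

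**Figure D2:**
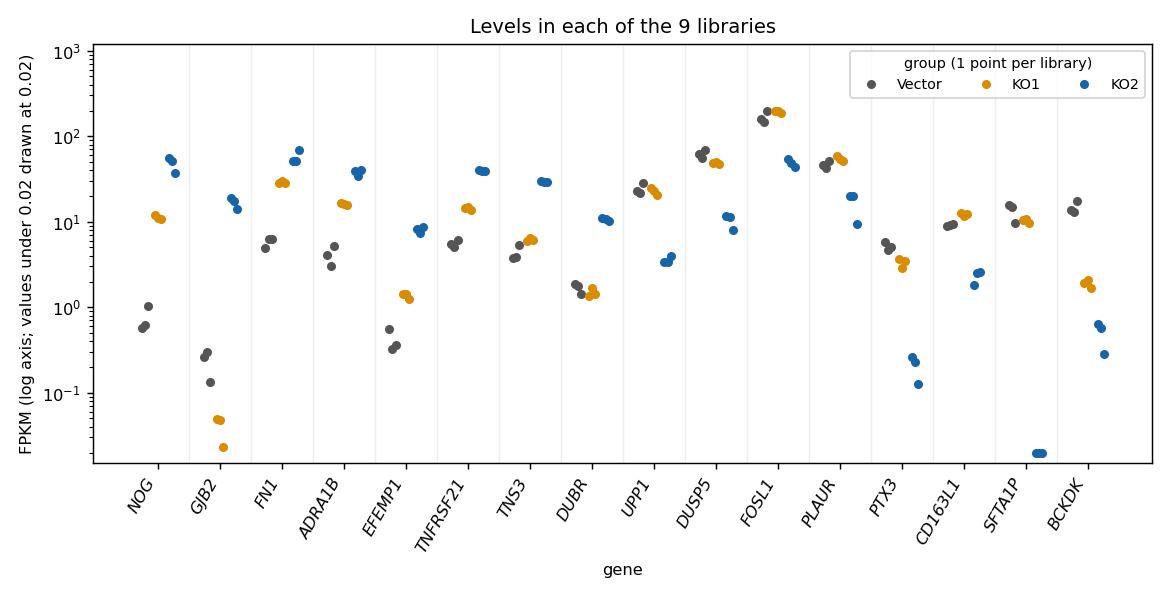
FPKM on a log axis (y axis) of 16 genes (x axis), with 1 point for each library of Vector, KO1 and KO2, and values under 0.02 drawn at 0.02. The KO2 points of NOG lie between 37.4 and 55.5 FPKM and those of UPP1 between 3.36 and 3.95, away from both other groups.

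What set KO2 apart from both references was counted as genes that differed from Vector and from KO1 in the same direction, each by at least 1 on the log2 scale and each at an adjusted p under 0.05. There were 186 such genes higher in KO2 (1.11% of those fitted) and 85 lower (0.51%). Against KO1 alone, 2509 genes were higher (15%) and 2593 lower (15.5%). Without Vector replicate 3 and KO2 replicate 3, 154 of the 186 and 61 of the 85 met the same criteria of size and adjusted p, and 179 and 83 were called against both references at any size. That fit gave 225 apart-higher and 83 apart-lower genes in all, and against KO1 alone 3717 higher and 4175 lower. The comparisons with Vector and with KO1 share the KO2 libraries, so these counts are a description of KO2 against 2 references. The apart-higher genes had a median exon GC content of 55.1%, the apart-lower genes 48.0%.

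**Figure D3:**
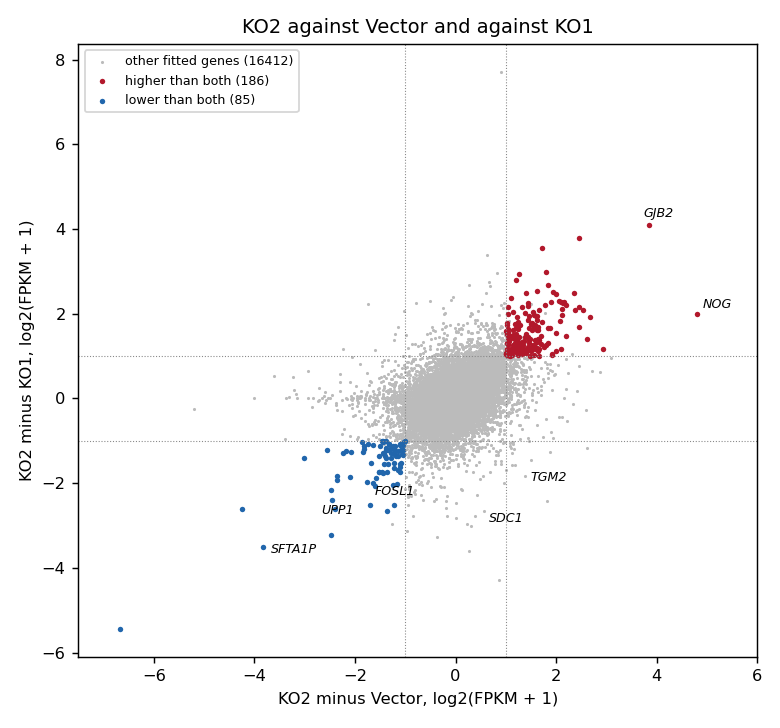
Difference of KO2 from Vector (x axis) and from KO1 (y axis) on the log2(FPKM + 1) scale, 1 point per fitted gene, with the 186 genes higher and the 85 lower than both references coloured and dotted lines at 1 and -1. GJB2 lies at 3.84 and 4.09, UPP1 lies at -2.47 and -2.39, and SDC1 and TGM2 are examples of genes that were above Vector and below KO1.

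The apart genes were ranked by the smaller of both differences among those that code for protein, averaged 5 FPKM or more in the higher of KO2 and Vector, and were called also without both replicates 3. In that order the 10 genes furthest above both references included GJB2, NR2F1, CLU, TJP3, TNS3, SPRY1, C1QTNF12, NOG and SLC22A17. NR2F1, an orphan nuclear receptor of neural development, stood at 4.41, 3.74 and 5.54 FPKM in Vector, 4.79, 3.88 and 3.61 in KO1 and 25.4, 26 and 19.9 in KO2. TJP3, the tight junction protein ZO-3, was at 0.533, 0.434 and 0.972 FPKM in Vector, 0.594, 0.437 and 0.309 in KO1 and 5.87, 5.76 and 6.39 in KO2. C1QTNF12, a secreted adipokine, was at 1.76, 2.44 and 4.6 FPKM in Vector and 17.4, 15 and 10.4 in KO2. For C1QTNF12 both replicates 3 stood nearest to the other group. SLC22A17, a receptor for lipocalin 2, was at 0.625, 0.621 and 1.25 FPKM in Vector and 7.01, 6.38 and 7.06 in KO2.

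In the same order the 10 protein-coding genes furthest below both references included UPP1, DUSP5, SH3BGRL, CXCL2, PTX3, FOSL1, CD163L1, AXL and TUBE1. UPP1, the uridine phosphorylase that frees ribose from uridine, stood at 23.1, 21.7 and 28.2 FPKM in Vector, 25, 23 and 20.8 in KO1 and 3.38, 3.36 and 3.95 in KO2. PTX3, a secreted pentraxin of innate immunity, was at 5.79, 4.69 and 5.04 FPKM in Vector, 3.65, 2.88 and 3.45 in KO1 and 0.263, 0.23 and 0.127 in KO2. CD163L1, a scavenger receptor, was at 8.98, 9.27 and 9.48 FPKM in Vector, 12.5, 11.5 and 12.4 in KO1 and 1.82, 2.52 and 2.59 in KO2, with KO1 above Vector by 0.36 (limma adjusted p = 0.0333).

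DUSP5, a phosphatase of ERK, FOSL1, a subunit of the AP-1 transcription factor, CXCL2, a chemokine, and AXL, a receptor tyrosine kinase, fell by 2.48, 1.76, 2.11 and 1.59 against Vector and lay below KO1 by 2.16, 1.98, 1.86 and 1.88. For AXL, KO2 replicate 3 stood at 106 FPKM and the other KO2 libraries at 52.6 and 52.8, all below the lowest Vector value of 179. TUBE1, the epsilon tubulin of centrioles, fell by 1.69 in a stretch of chromosome 6 whose fitted genes within 5 Mb had a median of -0.49. SH3BGRL fell by 2.36, where the genes within 5 Mb on chromosome X had a median of -0.44.

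UAP1, PLAUR and GPR137B come next in that order and SLC38A1 lies further down. All 4 were chosen after their values were seen. PLAUR encodes the receptor of urokinase, a plasminogen activator. It measured 46.6, 43 and 50.9 FPKM in Vector, 59.2, 54.3 and 51.4 in KO1 and 20.1, 20.2 and 9.44 in KO2 (log2 -1.51, limma adjusted p = 0.00195). UAP1, an enzyme of UDP-N-acetylglucosamine synthesis, was at 131, 119 and 94.9 FPKM in Vector and 37.2, 39.9 and 40.4 in KO2. SLC38A1, a glutamine transporter, was at 82, 86.4 and 69.9 FPKM in Vector, 70.9, 75.1 and 77.6 in KO1 and 32.4, 32.4 and 36.7 in KO2. GPR137B, a lysosomal membrane protein, was at 6.32, 5.07 and 4.98 FPKM in Vector and 1.57, 1.5 and 1.18 in KO2.

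Because FOSL1 belongs to AP-1, the promoters of the apart genes were searched for the AP-1 letters TGANTCA on both strands. The search covered RefSeq windows on GRCh38.p14 from 250 bases before to 50 after a gene's start, which 9928 fitted genes have. The letters were found in 9 of 55 apart-lower promoters (16.4%), in 2 of 91 apart-higher promoters (2.20%) and in 413 of all 9928 (4.16%). Among all genes that changed by at least 1 against Vector, they were in 17 of 291 fallen (5.84%) and 6 of 249 risen (2.41%). The letters TGATGNAAN, which describe the composite element bound by ATF4, were found in 5 of 55 (9.09%), 4 of 91 (4.40%) and 149 of 9928 (1.5%). Among genes that changed by at least 1 these were in 10 of 291 fallen (3.44%) and 4 of 249 risen (1.61%). The cAMP response element TGACGTCA was in 0 of 55, 2 of 91 and 327 of 9928 (3.29%), and the E-box CACGTG in 7 of 55 (12.7%), 6 of 91 and 1028 of 9928 (10.4%). No match of one of these motifs can contain a match of another. The motifs were chosen with the data known, and a match is a run of letters only. The windows below are those of the 5 lowest apart-lower genes that hold the AP-1 letters, shown in capitals, with that of GJB2, the gene furthest above both references, which holds none. Each ends 50 bases after the start.
PLAUR promoter, chr19:43670120-43670419, minus strand: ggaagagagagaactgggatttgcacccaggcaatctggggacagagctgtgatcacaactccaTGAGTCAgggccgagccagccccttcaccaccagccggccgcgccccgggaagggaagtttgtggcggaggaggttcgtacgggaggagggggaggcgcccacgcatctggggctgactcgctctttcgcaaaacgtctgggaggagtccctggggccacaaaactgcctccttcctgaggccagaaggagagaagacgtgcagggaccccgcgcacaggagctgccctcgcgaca
GPR137B promoter, chr1:236142289-236142588, plus strand: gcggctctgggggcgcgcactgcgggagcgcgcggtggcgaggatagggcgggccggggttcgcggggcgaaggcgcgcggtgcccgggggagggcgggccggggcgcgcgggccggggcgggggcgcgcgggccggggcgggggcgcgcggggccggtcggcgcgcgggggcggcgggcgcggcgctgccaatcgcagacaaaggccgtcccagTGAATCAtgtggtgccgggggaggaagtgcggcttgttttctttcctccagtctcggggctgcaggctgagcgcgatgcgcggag
TMEM156 promoter, chr4:39032360-39032659, minus strand: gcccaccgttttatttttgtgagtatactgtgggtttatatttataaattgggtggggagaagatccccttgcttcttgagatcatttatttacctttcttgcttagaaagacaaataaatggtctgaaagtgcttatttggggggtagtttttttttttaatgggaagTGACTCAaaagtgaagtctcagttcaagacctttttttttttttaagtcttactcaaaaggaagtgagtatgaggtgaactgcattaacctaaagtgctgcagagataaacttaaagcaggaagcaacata
SERPINB8 promoter, chr18:63969831-63970130, plus strand: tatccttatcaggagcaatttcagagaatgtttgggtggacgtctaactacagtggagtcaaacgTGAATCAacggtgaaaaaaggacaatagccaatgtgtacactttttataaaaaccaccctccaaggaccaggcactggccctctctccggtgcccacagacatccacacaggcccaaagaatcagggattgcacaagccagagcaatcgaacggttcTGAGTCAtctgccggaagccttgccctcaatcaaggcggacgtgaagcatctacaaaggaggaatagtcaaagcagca
SLC38A1 promoter, chr12:46266467-46266766, minus strand: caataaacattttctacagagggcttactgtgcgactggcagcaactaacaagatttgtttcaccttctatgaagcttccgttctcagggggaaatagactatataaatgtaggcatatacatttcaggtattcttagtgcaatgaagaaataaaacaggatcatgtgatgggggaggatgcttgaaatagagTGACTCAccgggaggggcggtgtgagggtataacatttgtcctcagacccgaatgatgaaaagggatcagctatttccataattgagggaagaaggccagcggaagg
GJB2 promoter, chr13:20192889-20193188, minus strand: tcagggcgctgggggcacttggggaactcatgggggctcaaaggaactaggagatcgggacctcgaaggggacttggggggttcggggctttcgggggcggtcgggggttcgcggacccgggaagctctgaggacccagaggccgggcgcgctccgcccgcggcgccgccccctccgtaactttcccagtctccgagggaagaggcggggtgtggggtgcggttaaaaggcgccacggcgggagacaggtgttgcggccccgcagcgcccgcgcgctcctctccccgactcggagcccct
SERPINB8 holds the letters at 2 places and the other 4 at 1 place each. In KO2 these 5 genes lay below Vector by 1.51, 1.42, 3.02, 1.22 and 1.20 in the order printed, and below KO1 by 1.74, 1.55, 1.40, 2.51 and 1.12.

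Chromosome 19 held 35 of the 186 apart-higher genes (18.8%), while it held 7.38% of the fitted genes. Its genes had a median exon GC content of 57.0%, and once the trend on GC content and length was removed, the apart-higher genes numbered 158 over all chromosomes. How many of those lay on chromosome 19 was not counted, so the part of GC content in its share was not tested. Without both replicates 3, 31 of the 35 met the same criteria. Of the apart-lower genes, 9 lay on chromosome 19 (10.6%) and 10 on chromosome 6 (11.8%), which held 7.38% and 5.11% of the fitted genes. The same criteria were met by 5 of the 9 and 7 of the 10 without both replicates 3. The share of genes that rose was also highest on chromosome 19, at 25.3%, and the share that fell was highest on chromosome 6, at 30.6%, followed by chromosome 10 at 29.8%.

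Along the chromosomes, the median difference between KO2 and Vector was taken in 296 bins of 10 Mb with at least 10 fitted genes. It lay within 0.25 of 0 in 244 of them and reached at least 0.5 in size in 8. On chromosome 19, 109 of 185 genes fell and 2 rose between 30 and 40 Mb (median -0.69), whereas 137 of 243 rose and 3 fell between 50 and 60 Mb (median 0.50). CAPNS1, a calpain subunit, and RPS16, a ribosomal protein, are the most abundant genes of the first bin and fell by 0.92 and 0.89. TRIM28, a corepressor recruited by zinc finger proteins, is among those of the second and rose by 0.91. Without both replicates 3, 113 fell and 7 rose in the first bin, and 162 rose and 7 fell in the second. Zinc finger genes and other genes of the first bin had medians of -0.70 and -0.69, and those of the second 0.46 and 0.58. KO1 had medians of -0.63 and 0.49 in these bins, and the median of KO2 minus KO1 was -0.08 and -0.01.

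A part of the long arm of chromosome 6 set KO2 apart from KO1 as well. The bins that start at 70 and 80 Mb were not low, with medians of 0.09 and 0.03 against Vector and 0.19 each against KO1. From 110 to 120 Mb 23 of 36 genes fell and from 120 to 130 Mb 16 of 22 fell, with 0 rising in either, and medians of -0.56 and -0.73 against Vector and -0.41 and -0.50 against KO1. MARCKS, a substrate of protein kinase C, stood at 34.8, 31.9 and 33.4 FPKM in Vector, 32.4, 30.4 and 27.8 in KO1 and 17, 16.9 and 13.1 in KO2. HINT3, a nucleotide hydrolase, fell by 0.79, and SERINC1, a membrane protein, gave -0.39 (adjusted p = 0.077), with 90.1, 84 and 59.2 FPKM in Vector and 56.2, 58 and 59.9 in KO2. Without both replicates 3 the fallen numbered 31 and 19. Near the tip of the short arm, from 0 to 10 Mb, 28 of 46 genes fell (median -0.56, against KO1 0.03), and 33 did without both replicates 3. WRNIP1, an ATPase of DNA replication, fell by 0.98 there, and NRN1 lies in the same bin.

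From 140 to 150 Mb of chromosome 8, 32 of 96 genes rose and 2 fell, with a median of 0.53 against Vector and 0.41 against KO1. Without both replicates 3, 75 rose and 1 fell there, with a median of 0.79. That bin has a median GC content of 63.1%, and once that trend was removed its median was 0.37. PLEC, the cytoskeletal linker plectin, measured 57, 68.8 and 155 FPKM in Vector and 191, 173 and 252 in KO2 (log2 1.25, limma adjusted p = 0.0184), a call that was lost on leaving out Vector replicate 1, Vector replicate 2 or KO2 replicate 3 (adjusted p = 0.0642, 0.0659 and 0.0574). RPL8, a ribosomal protein, gave 0.56 (adjusted p = 0.179) with all libraries and 1.11 without both replicates 3 (adjusted p = 0.00115). On chromosome 14 from 80 to 90 Mb, 9 of 17 genes fell (median -0.54), GALC and GTF2A1, a general transcription factor, among them, and KO1 was lower still there (median -0.92). On chromosome X from 80 to 90 Mb 7 of 11 genes fell (median -0.62), including SH3BGRL and BRWD3, a bromodomain protein. Without both replicates 3 the fallen of these bins numbered 12 and 9. Copy number was not measured, and its part in these stretches was not tested. Together the 8 bins held 656 genes, 3.93% of those fitted, and 7.78% of the called genes.

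**Figure D4:**
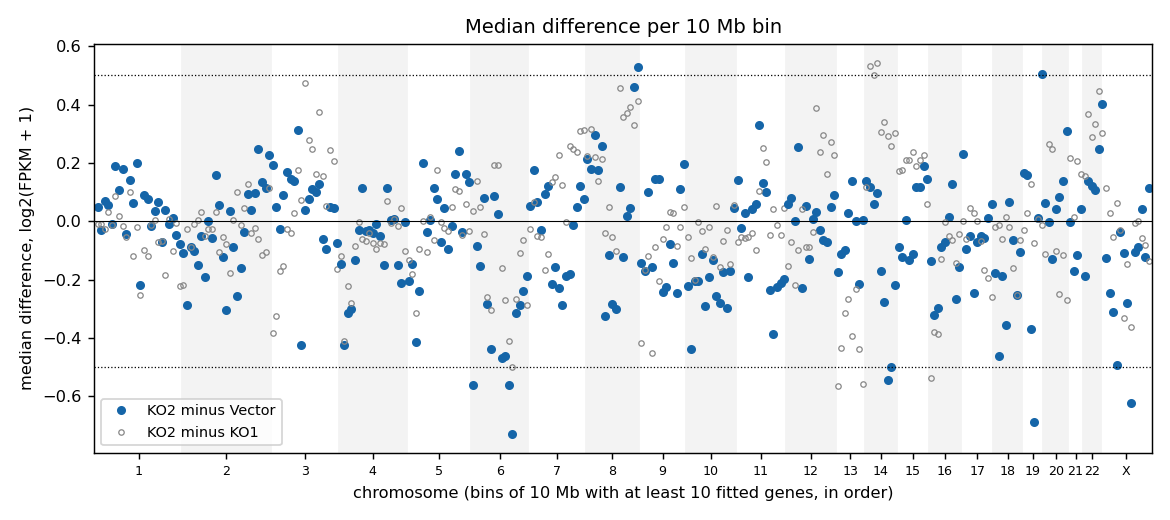
Median difference on the log2(FPKM + 1) scale (y axis) in 10 Mb bins in chromosome order (x axis), filled points for KO2 minus Vector and open points for KO2 minus KO1, with dotted lines at 0.5 and -0.5. The bins on chromosome 19 reach -0.69 and 0.50 in filled points with open points near 0, while those of chromosome 6 from 110 to 130 Mb are low in both.

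Gene families were read from 56 lists, of which 54 had at least 6 fitted members. Their medians ran from -0.40 to 0.75, 32 above and 22 below 0, while the median over all fitted genes was 0.00. The 8 lists with the highest and the 8 with the lowest median are given with their counts, to be set beside the 13% that rose and the 15.3% that fell over all genes. These counts are descriptions, and no list was tested as a set. Without both replicates 3 the risen were 24.2% and the fallen 25.6% of all fitted genes, and the counts of that fit follow here as risen and fallen. Of the high lists, SOX factors gave 6 and 0, Hedgehog genes 7 and 0, protocadherins 11 and 1, ephrins and Eph receptors 7 and 0, and proteoglycan cores 6 and 0. Mucin-type glycan enzymes gave 19 and 7, potassium channels 14 and 4, and retinoid genes 4 and 1. Of the low lists, serpins gave 4 and 8, glutathione enzymes 4 and 9, tubulins 3 and 5, and mitochondrial import 3 and 12. Purine and pyrimidine synthesis gave 3 and 15, nucleoside salvage 6 and 11, Fanconi and recombination genes 0 and 16, and the insulin-like growth factor axis 4 and 7. The median over each list kept its sign in that fit.

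Transcription factors of the SOX family had the highest median, 0.75, with 4 of 7 risen and 0 fallen. SOX4, a factor of progenitor cells, stood at 0.748, 0.676 and 1.05 FPKM in Vector and 5.5, 5.27 and 6.93 in KO2 (log2 1.92). SOX9, which directs cartilage and airway progenitor development, stood at 29.8, 29.9 and 32.1 FPKM in Vector, 141, 142 and 132 in KO1 and 67.1, 69.1 and 61.9 in KO2, so that KO2 lay between both other groups. In the Hedgehog pathway 4 of 10 rose and 0 fell (median 0.39). GLI1, its transcription factor and target, rose by 1.10 to 9.99, 9.65 and 8.95 FPKM in KO2, while KO1 lay below Vector by 1.26. HHIP, the membrane protein that binds Hedgehog ligands, went from at most 0.181 FPKM in Vector to 2.34, 2.32 and 3.07 in KO2.

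Cell surface and matrix receptors came next. Of 22 protocadherins, adhesion proteins best known from neurons, 9 rose and 2 fell (median 0.38). PCDHGA3 rose by 1.04 and PCDHGC3 fell by 0.97, but genes of this cluster share their last exons and their reads are uncertain. PCDH7, which lies outside that cluster, rose by 0.65. Of 13 ephrins and Eph receptors 4 rose and 0 fell (median 0.24), among them EFNB3, a ligand, by 1.24 and EPHA5, a receptor, by 0.89. EPHA5 was lower in KO1 than in Vector by 0.76.

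Of 11 proteoglycan core proteins 4 rose and 0 fell (median 0.35), a median that was 0.08 with the GC and length trend removed. GPC1, a glypican, rose from 2.66, 2.97 and 5.05 FPKM to 17.5, 16.9 and 17.2. SDC1, a syndecan, rose by 0.57 to 2.79, 2.36 and 2.56 FPKM, far below the 22.7, 21.7 and 20.4 of KO1. Of 41 enzymes that build mucin-type glycans or add sialic acid 14 rose and 7 fell (median 0.27). ST6GALNAC5 and GALNT14 rose by 1.64 and 1.10, while ST8SIA6 and GALNT13 fell by 1.73 and 1.34.

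Potassium channels rose in 12 of 27 cases and fell in 3 (median 0.28). KCNMB4, a subunit of the large-conductance calcium-activated channel, rose from 2.14, 2.07 and 1.88 FPKM to 7.89, 7.59 and 7.05. KCNN4, the intermediate-conductance channel, fell from 40.7, 39 and 64.1 FPKM to 18.4, 17.6 and 14.3, and KCNK6, a tandem-pore leak channel, fell by 0.76 in the low stretch of chromosome 19. Of 7 genes of retinoid metabolism 3 rose and 1 fell (median 0.34). TGM2, a transglutaminase induced by retinoic acid, stood at 5.85, 5.58 and 8.78 FPKM in Vector, 20.7, 19.2 and 17.1 in KO2 and 70.5, 71.4 and 69.3 in KO1. DHRS3 rose by 0.96 and RDH11 fell by 0.72, both retinal reductases.

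Serpins had the lowest median, -0.40, with 3 of 13 risen and 7 fallen. SERPINB8, an intracellular inhibitor of furin, was at 8.27, 8.16 and 6.67 FPKM in Vector, 20, 20.4 and 20.1 in KO1 and 3.11, 2.9 and 2.22 in KO2, so the clones moved in opposite directions. SERPINA1, alpha-1 antitrypsin, rose by 1.16, and SERPINI1, neuroserpin, which inhibits tissue plasminogen activator, rose from 3.47, 2.91 and 1.91 FPKM to 10.7, 12.2 and 8.74. Of 15 glutathione transferases and peroxidases 2 rose and 6 fell (median -0.38). GSTP1, the most abundant of those named, rose from 56, 45.8 and 68.1 FPKM to 118, 109 and 102, and GSTM4 rose by 0.73, while GSTA4 and GSTM3 fell by 1.43 and 0.81.

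Of 14 tubulins 1 rose and 6 fell (median -0.33). The rise was in TUBB4A, a beta tubulin of neurons, from 0.596, 0.562 and 1 FPKM to 4.36, 4.15 and 3.28, and TUBB2B fell by 1.89. Enzymes of purine and pyrimidine synthesis fell in 6 of 24 cases and rose in 0 (median -0.25). GART, a trifunctional enzyme of purine synthesis, stood at 39.4, 37.3 and 35 FPKM in Vector, 17.8, 17.9 and 17.1 in KO1 and 16.5, 17.4 and 15.6 in KO2. CTPS1, the CTP synthase, was at 10.3, 10.2 and 10.3 FPKM in Vector, 10.1, 9.41 and 9.55 in KO1 and 6.09, 5.66 and 5.39 in KO2.

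Nucleoside salvage and catabolism gave 3 risen and 7 fallen of 28 (median -0.13). UPP1, described above, is a member. GDA, guanine deaminase, had 1416 reads over Vector and 0 over KO2, at least 481-fold lower against a floor of 3 reads over the group, and XDH, xanthine dehydrogenase, rose by 1.29. Of 27 genes of mitochondrial protein import 7 fell and 0 rose (median -0.24), among them GRPEL1, a cochaperone of the matrix, by 0.93 and TIMM50, a receptor of the inner membrane, by 0.97. TIMM50 lies in the low stretch of chromosome 19.

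Of 33 Fanconi and homologous recombination genes 8 fell and 0 rose (median -0.20). PALB2 fell by 0.64 and BRCA1 by 0.60. Of 13 members of the insulin-like growth factor axis 3 rose and 4 fell (median -0.23). IGF2, a growth factor and one of the 3 that rose, went against that median. It went from at most 0.236 FPKM in Vector and 0.0254 in KO1 to 1.96, 1.77 and 3.32 in KO2. The 4 falls are not described singly.

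**Figure D5:**
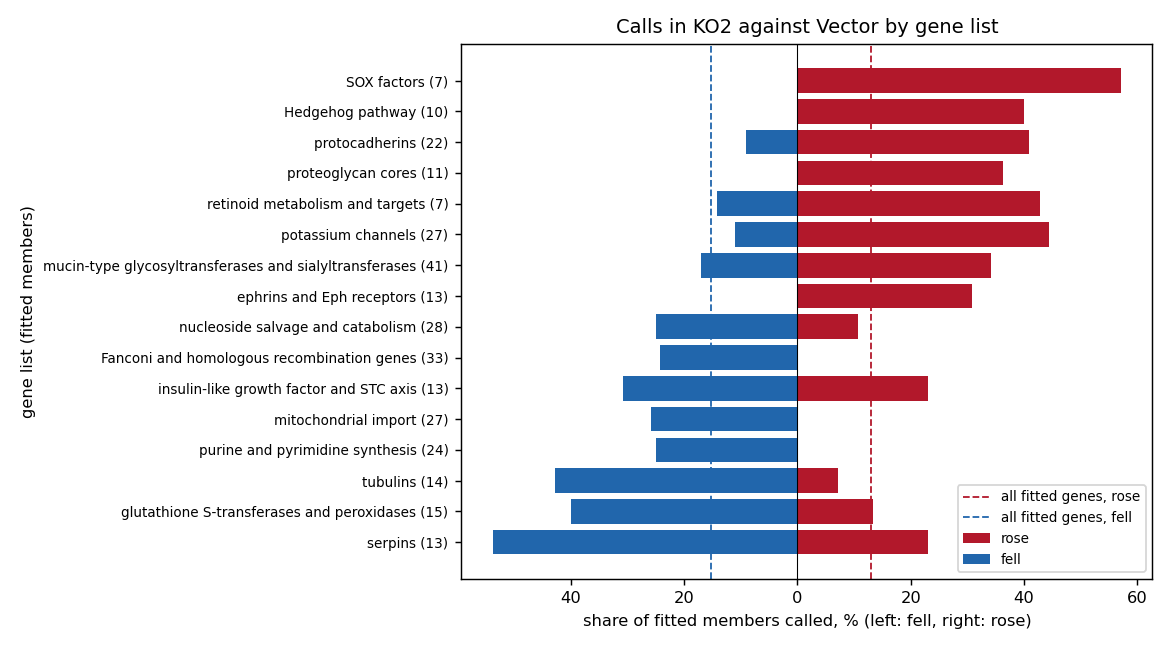
Share of fitted members that rose (right) or fell (left) in KO2 against Vector, in percent (x axis), for the 16 lists described, with the number of fitted members in brackets (y axis) and dashed lines at the shares over all fitted genes, 13% and 15.3%. SOX factors, with 4 of 7 risen, and serpins, with 7 of 13 fallen, are at the ends.

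Markers of neurons and neuroendocrine cells moved in both directions, and 10 of 20 were under 0.5 FPKM in all Vector and KO2 libraries. MAP2, a microtubule-associated protein of dendrites, stood at 5.76, 6.33 and 5.25 FPKM in Vector, 2.31, 2.68 and 2.85 in KO1 and 18.2, 18.4 and 23.6 in KO2. SCG2, a secretogranin, rose by 1.49, SNAP25, a synaptic fusion protein, by 0.79 and CHGB, a chromogranin, by 0.69. SYT1, a calcium sensor of synaptic vesicles, fell by 1.22 and UCHL1, a neuronal deubiquitinase, by 0.64, and the UCHL1 call was lost without Vector replicate 1 (adjusted p = 0.0985). The summed level of the list was 288 to 361 FPKM in Vector, 457 to 534 in KO1 and 218 to 313 in KO2. Of 10 endothelial markers 8 were under 0.5 FPKM, and EGFL7, a secreted protein that hosts a microRNA gene, rose by 1.22. The part of these markers in the counts of channels, tubulins and protocadherins above was not tested.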

How the data were processed

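The deposited table gives FPKM per gene, which the authors made from NEBNext Ultra libraries run on an Illumina sequencer, per the labels' protocols. CASAVA 1.6, HISAT2 2.0.5, featureCounts 1.5.0-p3 and the build hg38 are named in the submitters' processing notes, while the sources used here give neither the strand setting nor the treatment of shared reads. Multiplying FPKM by merged exon length (GENCODE 29) gave whole reads in 100% of values within 0.02 reads, and these give the depth.

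Values were taken as log2(FPKM + 1), which understates changes of low genes. All 9 libraries were fitted with limma 3.58.1 (R 4.3.3, trended empirical Bayes, group means), and p-values were adjusted by Benjamini-Hochberg over the 16683 genes; the procedure was tested on simulated data. Every adjusted p comes from this fit unless another setting is named.

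Members and lists were chosen with earlier results of these data known. Named genes passed with and without Vector replicate 3 and KO2 replicate 3, did not overlap between KO2 and Vector and reached 5 FPKM in the higher group: the 20 largest rises and falls and the 10 furthest from both references each way, all protein-coding, 10 switched each way, 5 non-coding each way, and up to 2 each way per list by smallest p. Switched genes, list members and the 2 most abundant genes of a bin needed no such level. Some genes the rule picks are not described. Neuronal and endothelial markers, and the genes said to be so, were chosen after their values were seen. Other settings covered libraries left out, filter, pseudocount, scaling, threshold, replicate block, neighbouring genes, GC content and limma-voom on the recovered reads.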

Additional observations from a re-analysis of the deposited data

Results flagged for a closer look

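Among the genes named, 85 differed between the clones by the direct test of KO2 minus KO1 (limma, Benjamini-Hochberg adjusted p under 0.05). This is a difference between the effects of the clones against the same Vector libraries, and each value below is KO2 minus KO1 on the log2(FPKM + 1) scale. Over all fitted genes, 15% were higher in KO2 than in KO1 and 15.5% were lower. The genes apart from both references, and CRH, PTP4A3, S100A16 and IL11, were picked in part by this same difference. The count of 85 is therefore partly set by the choice of genes and is a description only.

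In 9 of the 85 both clones were called against Vector with opposite signs. KO2 was above KO1 for CRH (7.71), MT-TV (2.99), MAP2 (2.54), GLI1 (2.36), EPHA5 (1.65) and PCDHGA3 (1.49). It was below KO1 for SERPINB8 (-2.51), CD163L1 (-1.99) and UCHL1 (-1.35).

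In 33 both clones were called against Vector with the same sign. KO2 was above KO1 in 19 of these. Large differences were those of TNS3 (2.08), NOG (1.99), EFEMP1 (1.93), PLK2 (1.69), TNFRSF21 (1.40), ADRA1B (1.17), SOX4 (1.03) and KCNMB4 (1.01). Smaller ones were FN1 (0.95), GSTM3 (0.94), FRMD5 (0.93), TUBB2B (0.83), GPC1 (0.78), FIBCD1 (0.76), TGFA (0.62), ADAMTSL3 (0.57), HHIP (0.54), RBP7 (0.52) and GSTA4 (0.52). KO2 was below KO1 in 14. These were S100A16 (-4.28), SDC1 (-2.66), ELOBP2 (-2.61), TGM2 (-1.84), PTX3 (-1.84), TMEM156 (-1.40), NRN1 (-1.22), SERPINA1 (-1.20), NRP1 (-1.17), SOX9 (-1.06), BCKDK (-0.95), XDH (-0.62), CALB2 (-0.52) and TIMM50 (-0.49).

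In 40 KO2 passed the threshold against Vector and KO1 did not. KO2 was above KO1 for GJB2 (4.09), C1QTNF12 (2.48), NWD1 (2.29), NR2F1 (2.28), TJP3 (2.28), DUBR (2.25), ONECUT3 (2.20), CLU (2.16), SPRY1 (2.08), SLC22A17 (1.96), SERPINI1 (1.69), IGF2 (1.69), TUBB4A (1.62), ST6GALNAC5 (1.38), SCG2 (1.19), EFNB3 (1.09), EGFL7 (0.84), CHGB (0.69), SNAP25 (0.66), GSTM4 (0.66) and PCDH7 (0.46). It was below KO1 for SFTA1P (-3.50), UPP1 (-2.39), DUSP5 (-2.16), FOSL1 (-1.98), SH3BGRL (-1.93), AXL (-1.88), CXCL2 (-1.86), PLAUR (-1.74), UAP1 (-1.73), GPR137B (-1.55), TUBE1 (-1.53), SYT1 (-1.52), SLC38A1 (-1.12), KCNN4 (-1.04), MARCKS (-0.91), GRPEL1 (-0.71), HINT3 (-0.69), CTPS1 (-0.67) and PALB2 (-0.64). In the remaining 3 KO2 did not pass the threshold against Vector: PTP4A3 (3.39), IL11 (-3.61) and SERINC1 (-0.46).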

How the results depend on the processing

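Direction held for every called gene that was fitted and called again, except 2 with neighbours subtracted. Counts of risen and fallen genes were 4031 and 4269 without Vector replicate 3 and KO2 replicate 3, 1381 and 1674 with only the 6 KO2 and Vector libraries, 3374 (risen) without the trend on GC content and length, and 1096 and 1372 at an adjusted p under 0.01. Genes apart from both references numbered 374 higher and 196 lower with a pseudocount of 0.1, and 434 and 216 with limma-voom. With 1 library left out, risen genes ranged from 1522 to 3142, fallen from 1823 to 3520, apart-higher from 167 to 199 and apart-lower from 75 to 109. Named bins numbered 4 at 20 Mb, 17 without both libraries and 16 with genes of at least 5 FPKM, against 8. Same-numbered libraries of Vector and KO2 correlated at -0.08, -0.09 and -0.20 in their deviations, and those of KO1 and KO2 at 0.14, -0.04 and 0.10. The outlying replicates 3 weigh on these values, so they cannot settle whether the numbers mark pairs. With the replicate block 1851 genes rose and 2226 fell. For the named genes, 24 of 1362 values under other settings and 8 of 1116 with 1 library left out changed their side of the threshold or sign. SERINC1 turned to 0.30 with neighbours within 5 Mb subtracted. The causes were not tested. Genes under about 1 FPKM rest on few reads.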

Other observations

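A few genes set KO2 apart from KO1 by more than 3 on the log2 scale without being among the large changes against Vector, and they were chosen after their values were seen. CRH, the gene for corticotropin-releasing hormone, measured 172, 147 and 161 FPKM in Vector, 0.284, 0.478 and 0.537 in KO1 and 344, 343 and 226 in KO2. KO2 was above Vector by 0.90 (limma adjusted p = 0.00418), while KO1 was lower than Vector (-6.81). PTP4A3, a phosphatase linked to cell migration, stood at 11.9, 10.9 and 20 FPKM in Vector, 1.31, 1.09 and 1.11 in KO1 and 23.7, 24 and 18.1 in KO2. S100A16, a calcium-binding protein, stood at 5.25, 5.59 and 6.52 FPKM in Vector, 261, 239 and 218 in KO1 and 12.6, 11.9 and 9.62 in KO2. IL11, a cytokine, was at 21.6, 20.1 and 19.2 FPKM in KO1 and at most 1.25 in the KO2 and Vector libraries. For CRH and PTP4A3 the value that stood out was therefore that of KO1, below both other groups, and for S100A16 and IL11 it was that of KO1 above them.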
